A study of Ovis aries with 62 samples.

Results

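The cytosolic ribosomal protein genes were followed across the rumen wall of 62 Merino ewes, using 36 of the 16011 gene rows with expression values. These 36 rows carried 32 distinct symbols: every symbol that began with RPL or RPS and a digit, or that was RPLP0, RPLP1, RPLP2 or RPSA, was taken, and the RPS6K kinases were left out. RPLP1, RPLP2 and RPSA were among the names searched but gave no row. Symbols came from gene lists that accompany the study, which name 1222 of the 16011 rows, so ribosomal protein genes without a symbol in those lists were not included. Of the rows, 21 encode proteins of the large subunit and 15 proteins of the small subunit.

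A ribosome reads messenger RNA on its small subunit and joins amino acids on its large subunit, and each subunit is an assembly of ribosomal RNA and many small basic proteins. The proteins are needed in nearly equal numbers, and their genes are transcribed at high rates in growing and secreting cells. The rumen wall combines a stratified, cornifying epithelium that absorbs fermentation products with thick layers of smooth muscle, so that a full-thickness piece of wall mixes tissues that differ in how much protein they make.

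All ewes were adult Merinos kept on one lucerne and oat chaff diet at a fixed multiple of maintenance, and had been assigned to 4 blocks, which were successive test periods. Block 1 held 16 sheep, block 2 held 16, block 3 held 14 and block 4 held 16. Each sheep gave 1 library from the full thickness of the ventral rumen wall and has recorded CH4 production, dry matter intake (DMI) and live weight, and CH4 yield is the CH4 produced for each kg of DMI. The ewes came from several sires, but the sire of each sheep is not in its labels and could not enter any fit. No sheep was untreated or otherwise a control, so block 1 was set against blocks 2-4 and the traits were tested across all sheep.

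Values are log2 CPM, in which the reads of a gene are set against the scaled size of the library. They are not divided by gene length, so levels were compared between sheep and not between genes. The libraries held 4208032 to 12130080 reads in genes, with a median of 7923973. Block 1 was the shallowest, with a median of 6812020 reads against 8215481, 8694507 and 8588581 in blocks 2, 3 and 4. Markers of both tissues were present throughout: desmin (DES) averaged 12.6 log2 CPM, smooth muscle myosin (MYH11) 13.5, and the cornifying keratin KRT78 11.3. The means of these lists differed between blocks. The mean of 10 cornifying epithelium markers ranged from 6.75 to 10.5 log2 CPM in block 1 and from 9.18 to 10.8 in blocks 2-4, and that of 13 smooth muscle markers from 9.14 to 11.3 and from 8.55 to 11.01. No marker was at 0.

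The ribosomal protein rows were well covered. The least covered row, RPL17 (ENSOARG00000014665), had a median of 227 reads a library and at least 96. The median row had a median of 5416 reads. Together the 36 rows took 1.79% to 3.07% of the reads of a library. All 36 rows lie in gene groups that the study drew from correlation networks, 12 in its general metabolism group and 24 in its metabolism group. These networks included the libraries used here, so the rows were selected in part because they move with other genes across sheep, and their correlation with each other is not independent evidence.

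All 36 ribosomal protein rows were lower in block 1 than in blocks 2-4. This held for 15 of 15 rows of the small subunit, with a median difference of -0.33 on the log2 scale, and for 21 of 21 rows of the large subunit, with a median of -0.30. Over the 36 rows the median difference was -0.31, a ratio of 0.809, whereas the median over all 16011 genes was -0.01. Among all genes 19.3% were lower in block 1 and 17.2% were higher at an adjusted p under 0.05 (limma across all genes with Benjamini-Hochberg adjustment), 36.5% in all. The adjusted p of the 36 rows ran from 1.1e-09 to 0.0285. No row had block 1 wholly below blocks 2-4, and neither did any of the 16011 genes (0%). Of the 16 sheep of block 1, between 13 and 16 lay below the median of blocks 2-4, depending on the row.

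**Figure D1:**
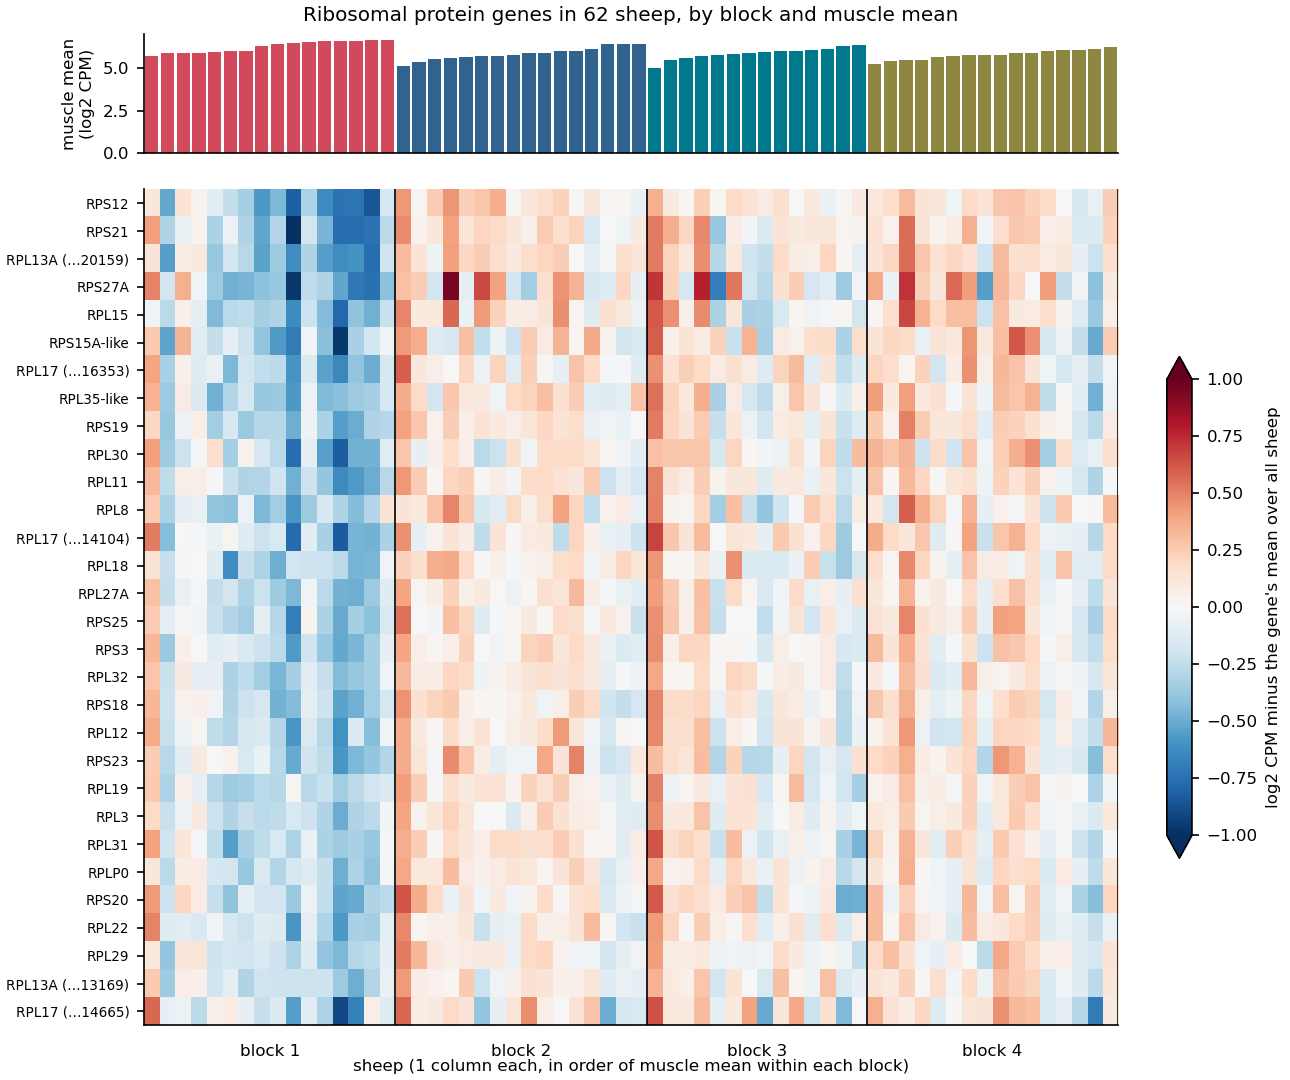
Heat map of 30 of the 36 ribosomal protein rows (from the largest to the smallest fall in block 1) in 62 sheep, in columns by block and, within a block, by muscle mean, with colour for log2 CPM minus the row's mean over all sheep. Bars on top give the muscle mean of each sheep in log2 CPM. The lowest columns are in block 1, but sheep of the other blocks, such as oz9 in block 4, also lie below the row means. Rows of one sheep largely share their colour. A symbol with several rows carries the end of its identifier.

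RPS12, a small subunit protein, showed the largest difference. Its expression ran from 7.23 to 8.22 log2 CPM in block 1 with a median of 7.70. The medians were 8.23, 8.18 and 8.24 in blocks 2, 3 and 4, and the lowest of those 46 sheep was at 7.93. In block 1, 12 of 16 sheep lay below that lowest value. The difference was -0.52 ± 0.06 (SE, adjusted p = 1.1e-09, limma), which leaves block 1 at 0.697 of the level in blocks 2-4. The spread within block 1 was also wider, with an SD of 0.33 against 0.14.

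RPS21, which is also on the small subunit, followed with -0.50 ± 0.07 (SE, adjusted p = 4.04e-07, limma). Block 1 ran from 6.96 to 8.74 log2 CPM with a median of 8.03, and blocks 2-4 from 7.95 to 8.89 with a median of 8.44. The groups thus overlapped, with 6 of the 16 sheep of block 1 below every sheep of the other blocks. RPS27A encodes a ribosomal protein made as a fusion with ubiquitin, and it varied more between sheep than any other row (SD 0.42 over 62 sheep). Its range was 6.42 to 7.88 log2 CPM in block 1 and 6.68 to 8.32 in blocks 2-4. Its difference of -0.45 ± 0.10 (SE, adjusted p = 0.000417, limma) therefore had a wider error than the others described here.

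On the large subunit, RPL13A (ENSOARG00000020159) ran from 8.43 to 9.32 log2 CPM in block 1 and from 8.90 to 9.75 in blocks 2-4. In 16 of 16 sheep of block 1 it was below the median of the others, with a difference of -0.48 ± 0.06 (SE, adjusted p = 3.14e-08, limma). RPL15 ran from 7.50 to 8.34 log2 CPM in block 1 and from 7.92 to 8.96 in blocks 2-4, again with 16 of 16 sheep below the median, and differed by -0.43 ± 0.07 (SE, adjusted p = 2.28e-06, limma).

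**Figure D2:**
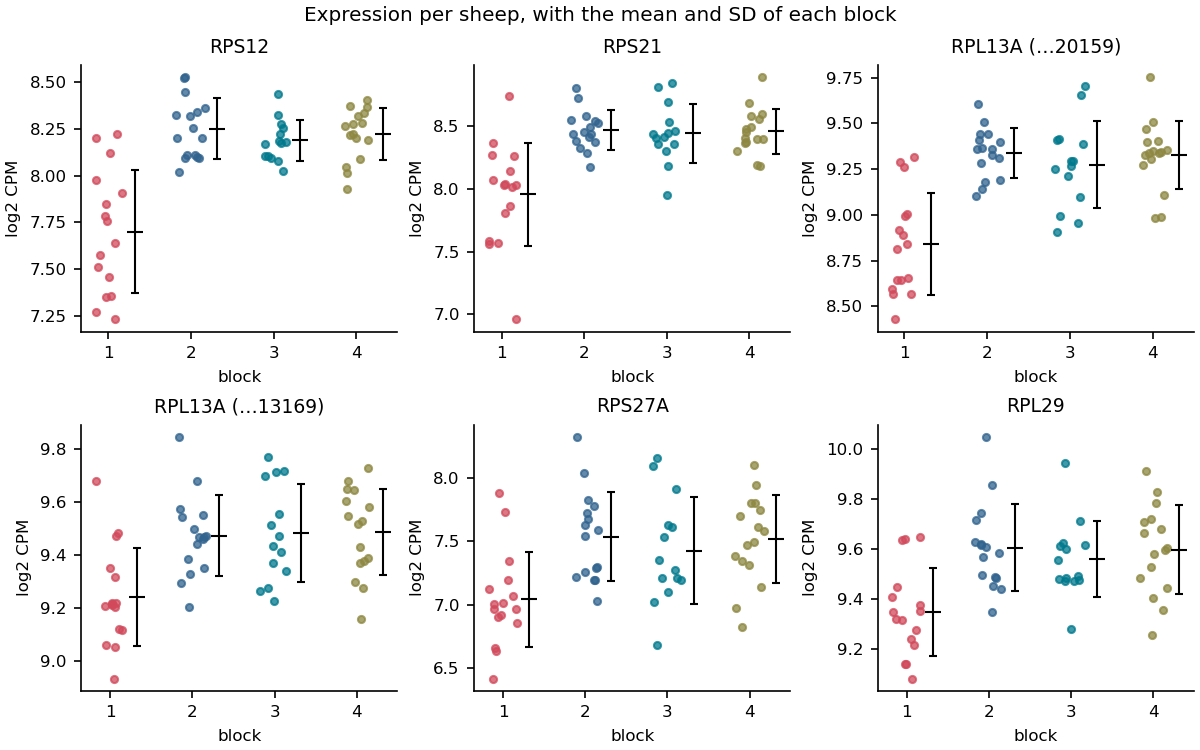
Expression of 6 ribosomal protein rows in log2 CPM (vertical axes) by block (horizontal axes), with 1 point for each sheep and the mean and SD of each block in black. RPS12 of block 1 spreads from 7.23 to 8.22, mostly under the other blocks, while RPL29 spreads from 9.08 to 9.65 in block 1 and from 9.25 to 10.05 in blocks 2-4.

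Among the smallest differences were those of RPL17 (ENSOARG00000014665) at -0.23 ± 0.09, RPL13A (ENSOARG00000013169) at -0.24 ± 0.05 and RPL29 at -0.24 ± 0.05 (each SE). RPL29 ran from 9.08 to 9.65 log2 CPM in block 1 and from 9.25 to 10.05 in blocks 2-4, so that its ranges overlapped although 13 of 16 sheep of block 1 were below the median of the others. The RPL17 row was the least secure of all 36. Its adjusted p of 0.0285 rose to 0.0862 without sheep oz85, to 0.0692 without oz109 and to 0.0614 without oz171, with all 3 of them in block 1. The other 35 rows passed the test with any 1 sheep left out.

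RPLP0, the scaffold of the stalk that recruits elongation factors and a common reference gene in expression work, ran from 10.2 to 10.8 log2 CPM in block 1 and from 10.4 to 11.1 in blocks 2-4. It was lower in block 1 by -0.25 ± 0.05 (SE, adjusted p = 0.000102, limma). RPL3, which lines the catalytic centre of the large subunit, had the smallest spread over the 62 sheep (SD 0.19), followed by RPLP0 (SD 0.19) and RPL32 (SD 0.19). In RPL3, 12 of 16 sheep of block 1 were below the lowest sheep of blocks 2-4 although the difference was only -0.26 ± 0.05 (SE, adjusted p = 3.06e-05, limma).

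The lowest values were shared between rows. The lowest sheep of all 62 was in block 1 for each of the 36 rows, and it was the same sheep, oz85, in 21 of them. The mean over the 36 rows was 8.50 ± 0.22 log2 CPM in block 1 (SD, n = 16), 8.84 ± 0.12 in block 2 (SD, n = 16), 8.80 ± 0.18 in block 3 (SD, n = 14) and 8.82 ± 0.16 in block 4 (SD, n = 16). In block 1, 8 of 16 sheep had a mean below that of any sheep in the other blocks. As a share of reads, the 36 rows took a mean of 2.15% ± 0.24 in block 1 and 2.51% ± 0.21 in blocks 2-4 (SD, n = 16 and 46).

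Blocks 2, 3 and 4 were then compared with each other. Of the 36 rows 0 differed (adjusted p of at least 0.793, limma), 0 had an unadjusted p under 0.05, and among all genes 0.00625% were called and 7.28% had an unadjusted p under 0.05. When all 4 blocks were tested for any difference, 35 of 36 rows passed against 26.5% of all genes, and the exception was RPL17 (ENSOARG00000014665) with an adjusted p of 0.183. With the muscle mean in the fit, 10 of 36 rows passed (8.92% of all genes). Differences among blocks 2, 3 and 4 were thus not detected in these rows.

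Muscle genes moved with the ribosomal protein genes in the opposite direction. The muscle mean, taken over the 647 genes of the study's muscle group, was 6.24 ± 0.33 log2 CPM in block 1 and 5.82 ± 0.33 in blocks 2-4 (SD, n = 16 and 46). All 36 rows fell as the muscle mean rose, with slopes of -0.65 to -0.33 log2 CPM for each unit of the muscle mean, a median of -0.43, and adjusted p from 4.85e-13 to 0.000253 (limma). Of all genes 29% fell with the muscle mean and 25.9% rose. The rows come from epithelial groups of the networks that gave the muscle group, so this count was shaped in advance by their selection. RPS27A had the steepest slope at -0.65 ± 0.11 (SE), followed by RPS21 at -0.60 ± 0.09. RPL13A (ENSOARG00000013169) had the flattest at -0.33 ± 0.06. In bulk tissue, a smaller number of cells of one type and less of a transcript in each cell cannot be told apart.

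The relation was present within blocks. With block in the fit, 35 of 36 rows still fell with the muscle mean (24.3% of all genes), and the exception was RPL8 (-0.19 ± 0.09, SE, adjusted p = 0.06, limma). Without block 1, 33 of 36 rows did (19.6% of all genes), and RPL8 and RPL30 were among those that did not pass, at adjusted p of 0.123 and 0.146 (limma). The slope on the muscle mean differed between blocks in 0 of 36 rows and in 0.15% of all genes (limma interaction). An unadjusted p under 0.05 was reached by 2 of 36 rows and by 1427 of 16011 genes. As a description over 62 sheep, the mean of the 36 rows had r = -0.75 and rho = -0.70 with the muscle mean, and r = -0.70 without the 2 sheep farthest from the median muscle mean. Within blocks 1, 2, 3 and 4 it was -0.67, -0.74, -0.77 and -0.50.

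**Figure D3:**
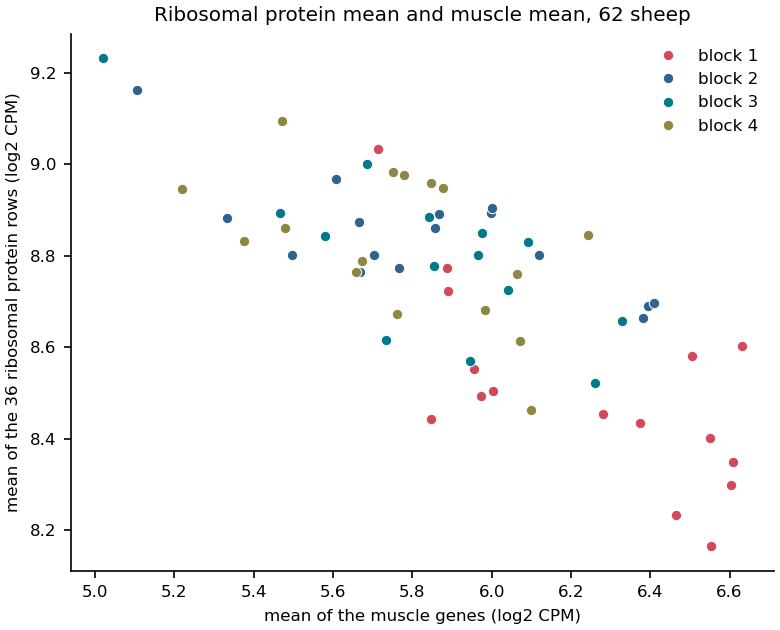
Mean of the 36 ribosomal protein rows (vertical axis, log2 CPM) against the mean of 647 muscle genes (horizontal axis, log2 CPM), 1 point for each of 62 sheep, coloured by block. The points fall from upper left to lower right in each block, and most sheep of block 1 lie at the lower right.

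With the muscle mean as a covariate, 19 of 36 rows remained lower in block 1 (7.05% of all genes lower, 7.31% higher), and all 36 estimates stayed below 0, with a median of -0.16. Estimates below 0 were found in 54.5% of all genes, whose median was -0.02. The 19 comprised 6 of 15 small subunit rows and 13 of 21 large subunit rows. RPS12 kept the largest difference at -0.38 ± 0.06 (SE, adjusted p = 5.93e-06, limma), followed by RPL13A (ENSOARG00000020159) at -0.33 ± 0.06 (adjusted p = 0.000146) and RPS21 at -0.32 ± 0.07 (adjusted p = 0.00155). With the muscle mean and another scaling together the count fell further, to 15 rows with libraries centred on their medians (5.96% of all genes lower) and to 13 on the plain total of reads (4.18%). Among the 17 that no longer passed were RPS27A (-0.24 ± 0.11, adjusted p = 0.129), RPLP0 (-0.14 ± 0.05, adjusted p = 0.0505) and RPL29 (-0.11 ± 0.05, adjusted p = 0.124).

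**Figure D4:**
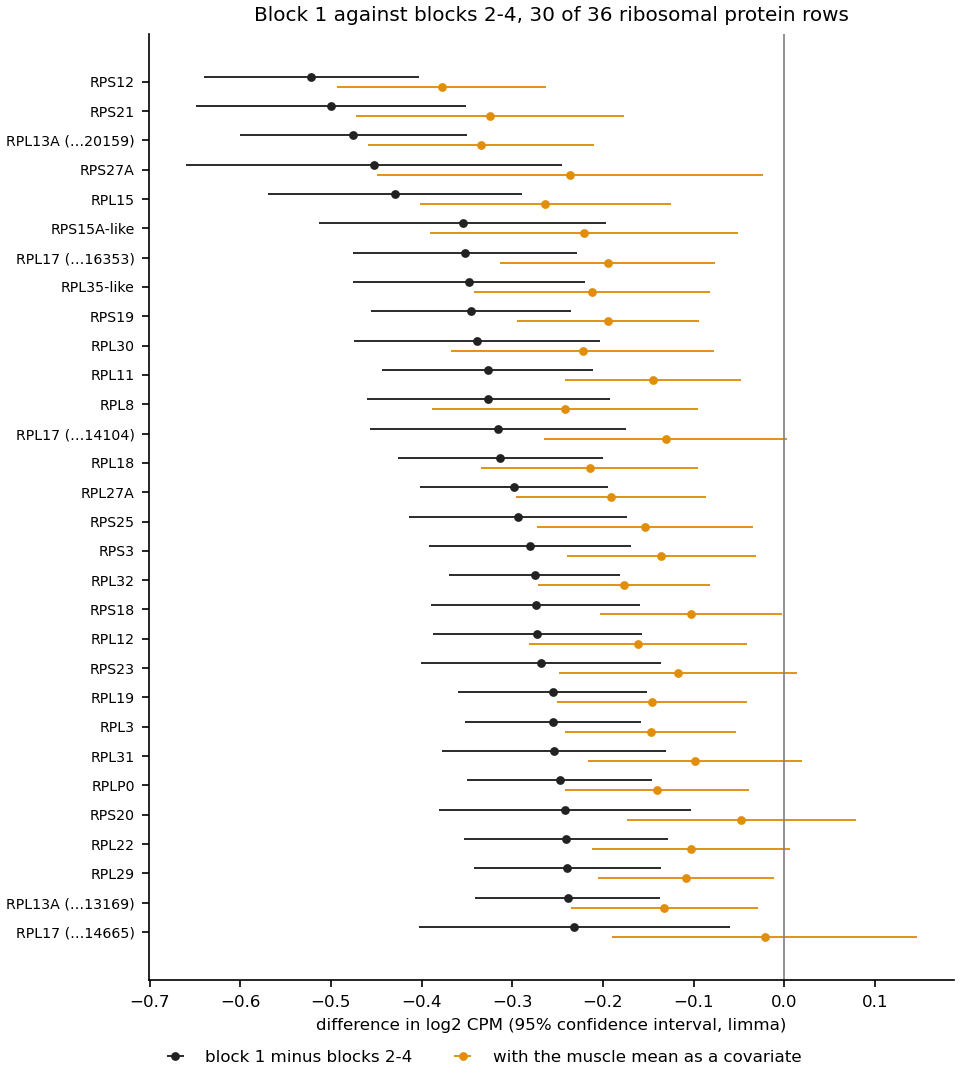
Difference in log2 CPM between block 1 and blocks 2-4 (horizontal axis) for 30 of the 36 ribosomal protein rows (vertical axis), with 95% confidence intervals from limma, without a covariate in black and with the muscle mean as a covariate in orange. All black intervals lie below 0, and the orange ones are nearer to 0, with RPS12 at -0.38 still clear of it.

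Other measures that differed in block 1 were also used as covariates. With the mean of the 43 epithelial differentiation genes of the study as a covariate, 21 of 36 rows remained lower (3.01% of all genes), and 17 rows passed with each of the muscle and the epithelial covariates used alone. With library depth as a covariate all 36 were lower (15.6% of all genes). The scaling factor of the libraries ran with the ribosomal protein mean (r = -0.74 over 62 sheep). On CPM taken from the plain total of reads, without any scaling factor, 35 of 36 rows were lower (12.9% of all genes) and RPL17 (ENSOARG00000014665) was not. That scaling moved all genes upward in block 1, with 3798 higher and 2059 lower against 2755 and 3087 in the scaled values. Which of these measures, if any, carries the difference was not tested, and block 1 cannot be told apart from anything else that was particular to its test period.

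RPS12 and RPS21 were, of the 36 rows, those whose expression relative to the others ran most closely with the epithelium. When the mean of the other 35 rows was subtracted from RPS12 in each sheep, the remainder had r = 0.73 and rho = 0.59 with the epithelial differentiation mean over 62 sheep. The r was 0.88 within block 1, and 0.39, 0.34 and 0.38 within blocks 2, 3 and 4. The RPS21 remainder had r = 0.59 but rho = 0.16, with 0.75 within block 1 and -0.19, -0.26 and -0.29 in the other blocks, so its relation rested on block 1. The same remainders had r = 0.47 and r = 0.34 with the log2 number of reads, and the part of depth in them was not tested. In the other rows such remainders had r with the epithelial mean as low as -0.48, in RPLP0.

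The 36 rows moved largely as one. The 630 pairs had r from 0.42 to 0.94 over 62 sheep, with a median of 0.78, and 39.8% of pairs were above 0.8, the threshold used by the study for its network. The first principal component held 77.1% of the variance of the standardised rows, and the next 4.99%. RPL17 (ENSOARG00000014665) and RPL18 formed the most distant pair, at 0.42. In blocks 2-4 alone the median pair was at 0.66 (n = 46), and 62 pairs were above 0.8. RPS19, the small subunit protein mutated most often in Diamond-Blackfan anaemia, followed the mean of the other rows most closely (r = 0.95), and RPL8 least closely (r = 0.74).

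A symbol held by several rows marks gene copies that are likely to be nearly identical in sequence. Only uniquely mapped reads were counted, so reads that fit several copies were lost and the values of a single copy are uncertain. RPL17 had 3 rows and RPL13A had 2. The ratio of 2 rows from one library does not depend on how that library was scaled, and it was compared between block 1 and blocks 2-4 for 5 pairs of copies, 4 of which are described. The log2 ratio of RPL13A (ENSOARG00000013169) to RPL13A (ENSOARG00000020159) was 0.40 ± 0.15 in block 1 and 0.17 ± 0.15 in blocks 2-4 (SD, n = 16 and 46). It was above the median of blocks 2-4 in 16 of 16 sheep of block 1, and the difference of 0.24 had an adjusted p of 2.5e-05 over the 5 pairs (two-sided permutation test, 100000 draws, raw p = 1e-05, the smallest they can give).

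The 3 RPL17 pairs differed by -0.08, 0.04 and 0.12, and none passed after adjustment (adjusted p = 0.155, 0.352 and 0.0677, permutation test). The RPL13A ratio also ran with depth, with r = -0.53 over 62 sheep and -0.29 within blocks 2-4 (n = 46), and the part of depth in it was not tested. The other RPL17 rows were also lower in block 1, RPL17 (ENSOARG00000014104) by -0.32 ± 0.07 and RPL17 (ENSOARG00000016353) by -0.35 ± 0.06 (SE). The levels of the copies rose and fell together, with r of 0.80 for RPL13A and 0.77 to 0.88 for RPL17.

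CH4 and feed traits gave no ribosomal protein row past the threshold. For CH4 production 0 of 36 rows passed (0.0125% of all genes), for CH4 yield 0 (0% of all genes), for DMI 0 (0%) and for live weight 0 (0.0187%), in limma fits of the slope for each SD of the trait. Rows with an unadjusted p under 0.05 numbered 0, 1, 0 and 0, against 9.05%, 9.5%, 11.9% and 8.23% of all genes, and voom precision weights also gave 0 adjusted calls for each trait. CH4 yield and DMI were fitted without sheep oz151, whose recorded DMI of 0.0795 kg a day gave a CH4 yield of 301 g for each kg, leaving 61 sheep.

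Some of the largest slopes of each trait follow. For CH4 production, which averaged 24.0 ± 4.72 g a day (SD, n = 62), RPS27A had a slope of 0.10 ± 0.05 log2 CPM for each SD (SE, adjusted p = 0.568, limma), RPL15 0.07 ± 0.04 and RPL31 0.06 ± 0.03. For CH4 yield RPS21 was at 0.08 ± 0.04 and RPL8 at 0.06 ± 0.03. For DMI the 3 largest were RPS12 at -0.06 ± 0.04, RPL30 at -0.06 ± 0.04 and RPS21 at -0.05 ± 0.04. The direction on DMI was not stable, with 28 of 36 slopes below 0 in this fit (50.8% of all genes), 13 with the muscle mean as a covariate, 4 with block in the fit and 5 without block 1. For live weight, which averaged 63.6 ± 8.32 kg (SD, n = 62), RPS15A-like was at 0.04 ± 0.04 and RPL12 at 0.04 ± 0.03. Slopes on live weight were above 0 in 33 of 36 rows and in 17 without block 1, while 49.9% of all genes were below 0 in the fit of all sheep. Over the 4 traits the 95% confidence intervals of all rows lay between -0.14 and 0.20 log2 CPM for each SD in the fits without covariates. The interval of RPS27A on DMI reached 0.21 with block in the fit and 0.24 without block 1.

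**Figure D5:**
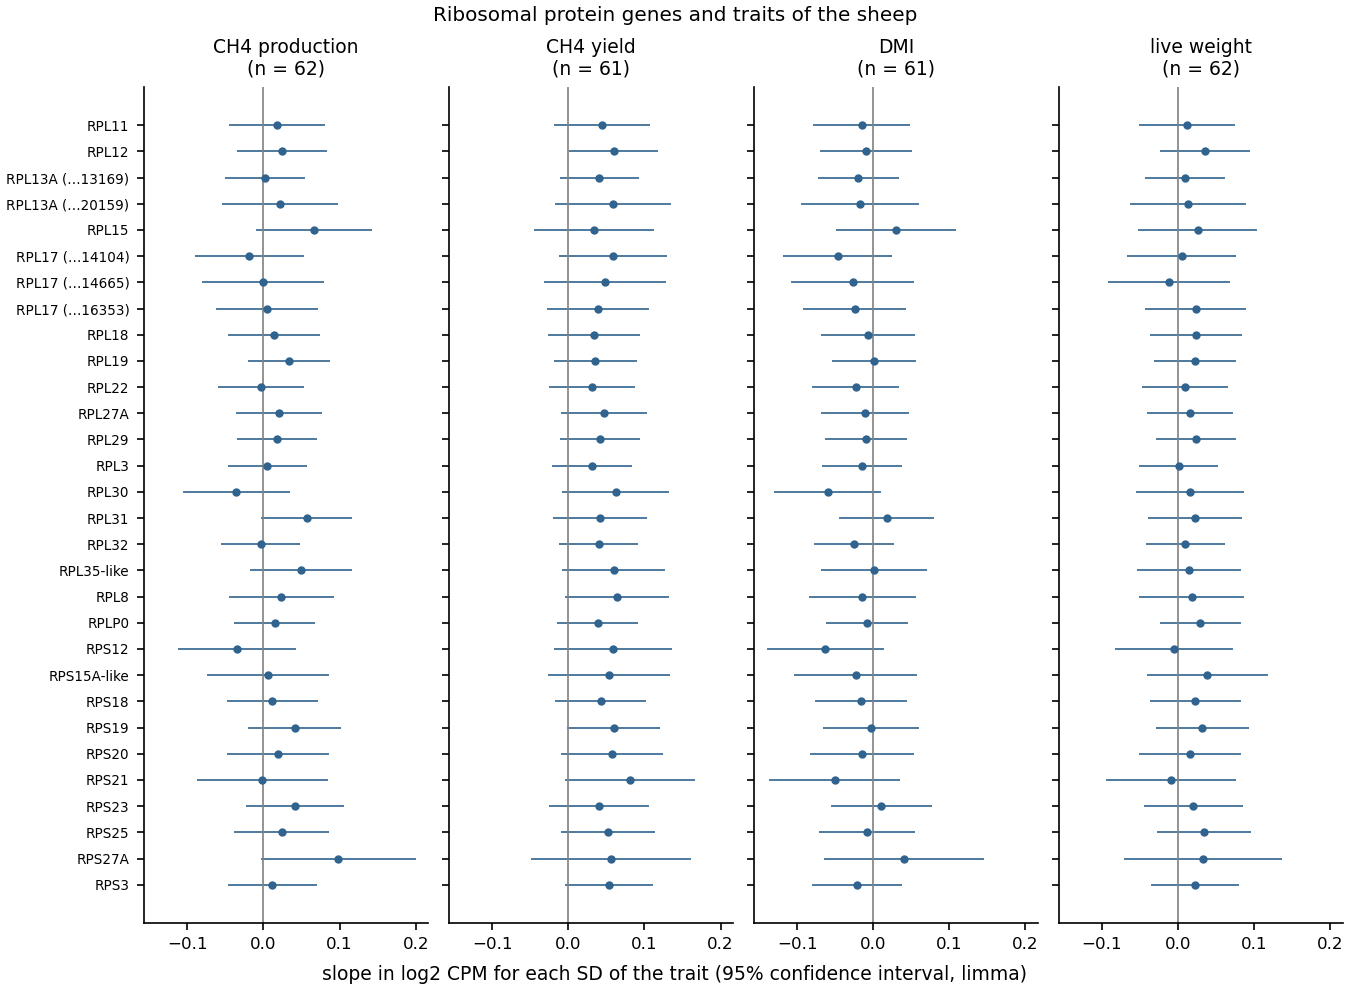
Slope of 30 of the 36 ribosomal protein rows (vertical axis) in log2 CPM for each SD of CH4 production, CH4 yield, DMI and live weight (horizontal axes), with 95% confidence intervals from limma. All slopes on CH4 yield lie to the right of 0, at 0.03 to 0.08, and RPS27A has the largest slope on CH4 production at 0.10.

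Block bore on these slopes. The slope on CH4 yield was above 0 in all 36 rows, but 5 rows were below 0 with block in the fit, 10 without block 1 and 19 when sheep oz151 was kept. Of all genes 47.3% had a slope below 0 in the fit without covariates. Because the 36 rows moved largely as one, their signs are not 36 separate observations. CH4 yield was 19.0 ± 1.67 g for each kg in block 1, against 19.8 ± 3.19 in block 2 and 22.6 ± 4.08 in block 4 (SD, n = 16 each). Block 3, which held oz151, is not given here. Block 4 held sheep oz175, with a DMI of 0.376 kg a day and a CH4 yield of 35.7 g for each kg. Without oz175, 18 of 16011 genes passed for CH4 yield but 0 of 36 rows (limma). All 36 slopes then stayed above 0, and 4 rows had an unadjusted p under 0.05, as did 2248 of 16011 genes. For CH4 production, 8 of 36 rows had an unadjusted p under 0.05 with block in the fit (9.31% of all genes), and 0 passed after adjustment (0.025% of all genes). RPL15 then had a slope of 0.09 ± 0.03 (SE, adjusted p = 0.288, limma) and RPS27A one of 0.13 ± 0.05 (adjusted p = 0.335). The RPS27A slope on CH4 production within blocks 1, 2, 3 and 4 was 0.07, 0.14, 0.16 and 0.15. The slopes differed between blocks in 0 rows for each of the 4 traits and in 0% of all genes (limma interaction). No row had an unadjusted p under 0.05. Among 16011 genes 1187, 463, 963 and 464 did for CH4 production, CH4 yield, DMI and live weight.

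RPL35-like was named by the study for its correlation with CH4 traits in these sheep, so its trait slopes are given without a test. They were 0.05 ± 0.03 log2 CPM for each SD of CH4 production and 0.06 ± 0.03 for CH4 yield (SE). Its expression ran from 7.06 to 7.98 log2 CPM in block 1 and from 7.15 to 8.18 in blocks 2-4, a difference of -0.35 ± 0.06 (SE, adjusted p = 1.84e-05, limma).

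Among 13 other genes of cytosolic translation, 9 were lower in block 1, 3 were higher and 1 did not pass. Of all genes 19.3% were lower and 17.2% higher. LAMR1, an older name for the small subunit protein RPSA that the choice by symbol left out, was lower by -0.32 ± 0.05 (SE, adjusted p = 4.34e-07, limma). NACA2, of a family that binds nascent chains at the ribosome, differed by -0.55 ± 0.08, the RNA helicase EIF4A1 by -0.36 ± 0.08, and the elongation factor genes EEF1B2 and EEF1A1 by -0.33 ± 0.06 and -0.25 ± 0.05. The aminoacyl-tRNA synthetases DARS and NARS and the initiation factor gene EIF3M were lower by -0.26 ± 0.07, -0.22 ± 0.06 and -0.21 ± 0.05.

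PABPC1, the poly(A)-binding protein that ties messenger RNA to the initiation complex, went the other way. It ran from 7.13 to 8.63 log2 CPM in block 1 and from 6.29 to 7.62 in blocks 2-4, and all 16 sheep of block 1 were above the median of the others. The difference was 0.99 ± 0.10 (SE, adjusted p = 1.89e-10, limma), and 0.77 ± 0.10 with the muscle mean in the fit. EEF2K, the kinase that inhibits elongation factor 2, was higher by 0.34 ± 0.08 and the scaffold gene EIF4G3 by 0.33 ± 0.07, but neither passed once the muscle mean was in the fit (adjusted p = 0.59 and 0.232). EIF4E3 differed by 0.25 ± 0.13 (adjusted p = 0.115). With that covariate, 5 of the 13 were lower and 1 higher (7.05% and 7.31% of all genes).

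Other lists of housekeeping genes were lower in block 1 as well, against 19.3% of all genes. These lists, like the translation genes above, hold only genes with a symbol in the study's gene lists. Those gene lists were drawn in part from networks of these libraries. The counts were thus shaped by that selection and do not describe housekeeping genes in general. All 4 genes of mitochondrial translation were lower, with a median of -0.22, as were 9 of 9 genes of translocation and glycosylation at the endoplasmic reticulum (median -0.34), 7 of 7 proteasome genes (median -0.30) and 22 of 23 nuclear genes of oxidative phosphorylation (median -0.26). With the muscle mean as a covariate the lower counts were 0 of 4, 3 of 9, 1 of 7 and 3 of 23. These stood against 19 of 36 ribosomal protein rows and 7.05% of all genes. None of the 4 genes of mitochondrial translation had an unadjusted p under 0.05. Whether the lists differ from each other in this was not tested. Of the marker lists, 10 of 10 cornifying epithelium genes and 7 of 7 interferon genes were lower, and 13 of 13 smooth muscle genes, 6 of 9 fibroblast and matrix genes and 3 of 8 genes of dividing cells were higher. With the muscle mean as a covariate 5 of 10 cornifying epithelium and 2 of 7 interferon genes were lower, 7 of 8 genes of dividing cells were higher, and 0 of 9 fibroblast and matrix genes passed (limma), with 1 of them, FN1, at an unadjusted p under 0.05 (adjusted p = 0.163). Of the 13 smooth muscle genes 2 were then lower and 0 higher. All 13 estimates lay below 0, at -0.34 to -0.06 with a median of -0.15. The part of these marker lists in the ribosomal protein difference was not tested.

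The genes with a symbol that most resembled the mean of the 36 rows over 62 sheep were ATP6V0B, a subunit of the proton pump of vesicles (r = 0.89), LAMR1 (r = 0.89), EEF1B2 (r = 0.88), the clathrin light chain gene CLTB (r = 0.87) and EEF1A1 (r = 0.86). In all, 124 genes outside the 36 rows had r above 0.8, of which 47 carried a symbol. The oxidative phosphorylation list as a mean had r = 0.84 with the ribosomal protein mean, and r = 0.74 in blocks 2-4 (n = 46). These values share libraries, scaling and tissue composition between the 2 sides and are given as a description.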

How the data were processed

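RNA was sequenced by the authors from the ventral rumen wall of 62 sheep, with 1 library each, from ribosomal RNA depleted, stranded libraries read from both ends. The authors used TopHat with Bowtie2 for alignment to sheep models from Ensembl with added epidermal genes, counted uniquely mapped reads with HTSeq and deposited log2 CPM from voom (limma), with an offset of 0.5 and a scaling factor for each library. From the deposited log2 values whole reads were recovered in 100% of values (tolerance 0.01), which gave depth and scaling factors (0.916 to 1.15). All 36 ribosomal protein rows passed 3 CPM in all libraries.

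Block 1 was compared with blocks 2-4, the 4 blocks with each other, and slopes were fitted for CH4 production, CH4 yield, DMI, live weight and the muscle mean, each with limma 3.58.1 (R 4.3.3) over all 16011 genes with a variance trend and Benjamini-Hochberg adjustment, at a threshold of 0.05. The fits were also run on simulated data in which each gene was drawn independently, so that run does not cover genes that move together. The rule for the genes named took the 6 largest and 4 smallest differences in block 1, the 3 largest slopes of each trait, extremes of coverage and spread, all rows of shared symbols, RPL35-like, RPLP0, RPL13A, RPS27A, the other cytosolic translation genes and the 5 genes most like the mean. Other rows named, RPS19 and RPL18 among them, were chosen after their values were seen. Some genes that this rule picks are not reported here, and their rows stay in the counts. Members, lists and comparisons were chosen with earlier results of these data known. Nothing in the labels says that the sheep shared a replicate number, and p-values measure the spread between sheep. Counting error is largest for the RPL17 and RPS15A-like rows, which had the fewest reads. Alternatives covered covariates, library scaling, a 3 CPM filter, variance settings and each sheep left out.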

Additional observations from a re-analysis of the deposited data

How the results depend on the processing

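No paired analysis was possible because the labels give the blocks no shared replicate numbers. Of the 36 rows, the count lower in block 1 moved to 19 with the muscle mean as a covariate and, under covariates chosen after seeing the data, to 21 with the epithelial differentiation mean, 15 with the muscle mean and libraries centred on their medians, and 13 with the muscle mean and the plain total of reads. In that last fit RPL17 (ENSOARG00000014665) turned to 0.027 (adjusted p = 0.871). The test of any difference between the 4 blocks moved from 35 to 10 rows with the muscle mean. With libraries centred on their medians, the plain total, the 3 CPM filter, no variance trend, voom weights or unequal variances, where run, the counts stayed at 32 to 36, and with each sheep left out in turn at 35 to 36 and at 33 to 35. The count falling with the muscle mean stayed at 33 to 36 under its alternatives and at 36 with each sheep left out. The 4 traits gave 0 rows under all alternatives, each sheep left out included. On DMI the RPS12 slope turned to 0.0126 without block 1, and the RPS21 slope to 0.0127 with block in the fit and to 0.0363 without block 1, none of them past the threshold. With each sheep left out, the RPL13A ratio passed throughout (0.22 to 0.25), and the RPL17 pair with a difference of 0.12 passed in 5 of 62 fits.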
